A study of Mus musculus with 10 samples.

Results

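The 9 genes described here, Csrnp1, Ier2, Ier3, Ier5, Sertad1, Btg1, Btg2, Tob1 and Tob2, belong to families of early response genes, and were chosen by name among the 13184 genes with counted reads. The choice was made with their response to KCl in these libraries known, so that their RNAseq, ribosome footprint (RF) and translation efficiency (TE) values under KCl are given as a description and not as a test. Each gene was represented in the counts by 1 transcript. Of the 9 transcripts, 8 were measured, which means that at least 2 cultures had an RPKM, which is reads scaled to library size and transcript length, of 10 or more in RNAseq and in RF alike, as was true of 7262 transcripts of 4369 genes in all. Btg2 was the exception and reached this level in 0 cultures. Csrnp1 passed through KCl cultures 4 and 5 only, and therefore had to differ between the groups. Tob2 passed in both KCl cultures and in untreated culture 2, where its RNAseq RPKM before normalization was just at the threshold.

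The cultures were mixtures of neurons and glia from the cortex of newborn FVB mice, grown for 7 days. The labels name no genetic change. The untreated group held cultures 1, 2 and 3, and the KCl group held cultures 4 and 5, which were depolarized with 55 mM KCl for 3 h. All 5 cultures were exposed for 7 min to cycloheximide, a drug that stalls ribosomes on the mRNA, before lysis. Each lysate was divided for RNAseq, which measures the abundance of an mRNA, and RF, which sequences the fragments that ribosomes protect from nuclease. RF values were taken on the coding sequence (CDS), and TE is the ratio of RF to RNAseq in the same culture. The labels do not state whether cultures of a group came from separate litters, and p-values measure the spread between these cultures only.

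Early response genes are transcribed soon after a cell is stimulated, without the need for newly made protein, and their mRNAs are often short-lived. In neurons a rise of calcium upon depolarization activates CREB and SRF, transcription factors that are already present and that bind the CRE and the CArG box. BTG and TOB proteins restrain proliferation and bring the CCR4-NOT deadenylase to mRNAs, TOB proteins also through poly(A)-binding protein, and deadenylation in turn leads to mRNA decay. IER proteins are small regulators of transcription, survival and the stress response. SERTAD1 binds CDK4 and E2F/DP complexes of the cell cycle, and CSRNP1 is a nuclear protein rich in cysteine and serine that activates transcription.

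The 3′UTRs of the 9 transcripts were searched, on the strand of the mRNA, for ATTTA and for the longer TATTTAT, which contains ATTTA. Both are cores of AU-rich elements, which bind proteins that control mRNA decay. TATTTAT was present in 23.9% of the 7198 measured transcripts with a 3′UTR of at least 50 nt. Ier3 held 4 copies within 613 nt, or 6.53 per kb, which put it at the 99.6th percentile. Csrnp1, Btg2 and Tob2 held 1 copy each, and the other 5 genes held 0. The sites follow from the GRCm38 genome in 27 bases each, 5′ to 3′ along the mRNA, with TATTTAT in capitals, because they set Ier3 apart from the other members.
Ier3 chr17:35822482-35822508 (+): gtctaattaaTATTTATgtatttatgt
Ier3 chr17:35822490-35822516 (+): aatatttatgTATTTATgtatatcctc
Ier3 chr17:35822532-35822558 (+): gtgtatgtaaTATTTATtctaacttat
Ier3 chr17:35822587-35822613 (+): gtaacacagaTATTTATtacgatttat
Csrnp1 chr9:119972068-119972094 (-): actctgaattTATTTATttttttatgt
Btg2 chr1:134077250-134077276 (-): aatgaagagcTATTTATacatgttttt
Tob2 chr15:81849861-81849887 (-): atcacctgctTATTTATgtacgaggtt
The first pair of Ier3 stretches overlap each other. ATTTA was found in 62.9% of the 3′UTRs. Ier3 had 5 copies (8.16 per kb, 98.5th percentile), Csrnp1 had 5 (4.64 per kb, 92.9th percentile) and Tob1 had 3 (3.91 per kb, 89.7th percentile), while Ier2 and Sertad1 had 0. Btg1 had 11 copies, but its 3′UTR is 4166 nt long and the density was 2.64 per kb.

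TGTANATA, the motif of Pumilio proteins, which also bring CCR4-NOT to mRNAs, was found in 23.1% of the same 7198 3′UTRs. Ier5 held 2 matches in its 3′UTR of 2143 nt, printed here from GRCm38 with the motif in capitals as examples. Matches in the other members are not reported here.
Ier5 chr1:155097654-155097680 (-): ttatggcttTGTAGATAaggtgactcc
Ier5 chr1:155096402-155096428 (-): ccataatcaTGTACATAatacatagaa

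RefSeq promoter sequences on GRCm38.p6, from 250 bases before to 50 bases after a start site, were listed for 8 of the 9 genes, with 4 start sites for Csrnp1 and 1 for each of the others. The motifs were searched on both strands. The full CRE, TGACGTCA, was found in 1.79% of all 32851 promoters and among the members in Btg2, at 166 bases before the start. Its first 5 letters, TGACG, are a core shared by weaker CREs and occur in 20.8% of promoters. This core was found in Csrnp1, Btg1, Btg2 and Tob1, in Csrnp1 at all 4 start sites. The AP-1 site TGANTCA, in 7.81% of promoters, was found in Csrnp1 only, with 2 copies at a single start site. The CArG box, in 1.63% of promoters, was found in 0 of the 8 genes. TATAAA, in 13.6% of promoters, was found in Btg1 and Tob1. The stretches below, 5′ to 3′ along the gene, show examples of these matches in capitals, with CGTCA standing for TGACG on the opposite strand. The Csrnp1 AP-1 stretch belongs to a start site downstream of that of the counted transcript.
Btg2 CRE, chr1:134079303-134079332 (-): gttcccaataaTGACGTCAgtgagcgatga
Csrnp1 CRE core, chr9:119984521-119984550 (-): cctgccgtgggcTGACGaggactcgggtgg
Csrnp1 AP-1 site, chr9:119983019-119983048 (-): ggccactgccgTGAGTCAccggggcgcagc
Btg1 CRE core, chr10:96616886-96616915 (+): cgaatctgcctgCGTCAcaatggtgcgatc
Btg1 TATA box, chr10:96616963-96616992 (+): tttccgcagcccTATAAAatgagctgcacg
Tob1 CRE core, chr11:94211346-94211375 (+): agggcgggactgTGACGcgagcggcgcgca
A match is a run of letters and not a site shown to be bound. Windows without a match say nothing about CREB or SRF elsewhere at these genes. Btg2, which holds the full CRE, was not measured, and a link between these motifs and the response to KCl was not tested.

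RNAseq libraries held 3056286 to 3629959 counted reads and RF libraries 1463654 to 7719915. The RF libraries of untreated culture 3 and KCl culture 4 were the smallest, so that member values there rest on few reads, down to 3 RF reads for Btg2 and 8 for Btg1 in culture 3. Of the activity genes used to check the KCl label, 2 of 7 were measured, and both were higher with KCl. Fos, the immediate early transcription factor, differed by a log2 of 1.59 ± 0.18 (SE) in RNAseq and Junb by 1.03 ± 0.18. Summed RNAseq CPM (reads scaled to library size alone) of 5 astrocyte markers were 12320 to 13180 in untreated and 10280 to 10630 in KCl cultures. Aqp4, Slc1a3 and Slc1a2 among them were called lower by edgeR in RNAseq. Of 12 alternatives, Slc1a2 lost this call in 5, Slc1a3 in 3 and Aqp4 in 1. With RNAseq counted on the CDS alone, all 3 calls were lost. In RF the list went the other way, with Aqp4 (log2 0.36), Slc1a3 (0.24) and Aldoc (0.36) called higher and 0 lower. In TE Aqp4 (0.87) and Slc1a3 (0.63) were called higher. The RF call of Slc1a3 was lost with library totals (log2 0.11), with 1 fit over all 10 libraries, and where a KCl culture was left out. The Aldoc call in RF and the Aqp4 and Slc1a3 calls in TE were lost only where a KCl culture was left out. Markers of neurons and glia were both present. The 5 neuron markers summed to 452.1 to 647.4 CPM against 558.1 to 566.3, the 5 oligodendrocyte lineage markers to 1470 to 1613 against 1420 to 1439, and the 4 counted microglia markers to 110.4 to 135.4 against 82.19 to 113.2. In RNAseq, Pdgfra (log2 -0.73 ± 0.18) was the 1 gene called among these lists, and of 3 measured neuron markers 0 were called and 1 had an unadjusted p under 0.05. The 4 endothelial markers summed to at most 7.802 CPM in any culture, and Tek was at 0 in the untreated cultures. In these bulk libraries fewer cells of a type and less RNA per cell cannot be told apart, and the part of the astrocyte markers in the members' values was not tested.

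In the untreated cultures Ier3 was the most abundant of the 9 genes and Csrnp1 the least. These levels are one side of the KCl contrast with which the members were chosen, and are given as a description. The order of RNAseq levels per length was Ier3, Btg1, Tob1, Ier5, Sertad1, Ier2, Tob2, Btg2 and Csrnp1. Normalized RPKM of Ier3, encoding a regulator of apoptosis, was 66.9 ± 17 (SD, n = 3), at the 82.2nd percentile of measured transcripts. That of Csrnp1 was 4.11 ± 1.42, at the 0.151st percentile, a place that follows in part from its passing the filter through the KCl cultures alone. Neighbours in the order were apart in all 3 cultures at 3 steps, between Btg1 and Tob1, between Ier2 and Tob2, and between Tob2 and Btg2. The ranges of the other neighbours overlapped. The RF order was the same at its ends, with Ier3 at 90.7 ± 8.29 and Csrnp1 at 5.96 ± 1.26 normalized RPKM, but Btg1 stood in the seventh place, at 14 ± 0.580 and the 2.53rd percentile.

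Btg1 was thus abundant as mRNA and sparsely covered on its CDS. Its untreated TE was 0.35, 0.278 and 0.282 in cultures 1 to 3, or 0.303 ± 0.041 (SD). This lay at the 0.923rd percentile of 7262 transcripts, whose median was 1.81. The RNAseq side of this TE is almost all 3′UTR, with 5 reads on the CDS and 1747 on the 3′UTR over these cultures. The Btg1 CDS also shares sequence with other genes, as described below, so that the low TE is uncertain. The other 8 genes had mean TE between 1.28 for Sertad1 and 2.32 for Tob2, at the 29.5th to the 63.9th percentile. In the order of TE from Tob2 to Btg1, the step from Sertad1 to Btg1 was the one at which neighbours did not overlap.

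With KCl, RNAseq was higher in all 8 measured members and RF in 7 of the 8 by edgeR's quasi-likelihood test at a Benjamini-Hochberg adjusted p under 0.05, and 0 were lower. Of all 7262 transcripts, edgeR called 17.9% higher and 15.1% lower in RNAseq. For RF these shares were 20.8% and 20.1%. These counts show what the members were selected on and are given for size only. The median log2 difference of the members was 1.47 in RNAseq (from 0.5 to 3.44) and 1.65 in RF (from 0.37 to 3.24), beside medians of 0.0 and -0.01 over all transcripts. Both KCl cultures lay above all untreated cultures for all 8 members in both assays, as they did for 27.6% of transcripts in RNAseq and 30.2% in RF. TE was called for 0 of the 8 members in edgeR, for 0 also at an unadjusted p under 0.05 and for 0 with DESeq2, and its median log2 difference was 0.07. The SE of these TE differences was 0.22 to 0.36, so that changes of this size could not be seen. Over all transcripts 1.53% were called higher and 4.27% lower in TE. The 2 KCl cultures lay above all untreated cultures in TE for 1 member, Tob2, and for 15.7% of transcripts.

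**Figure D1:**
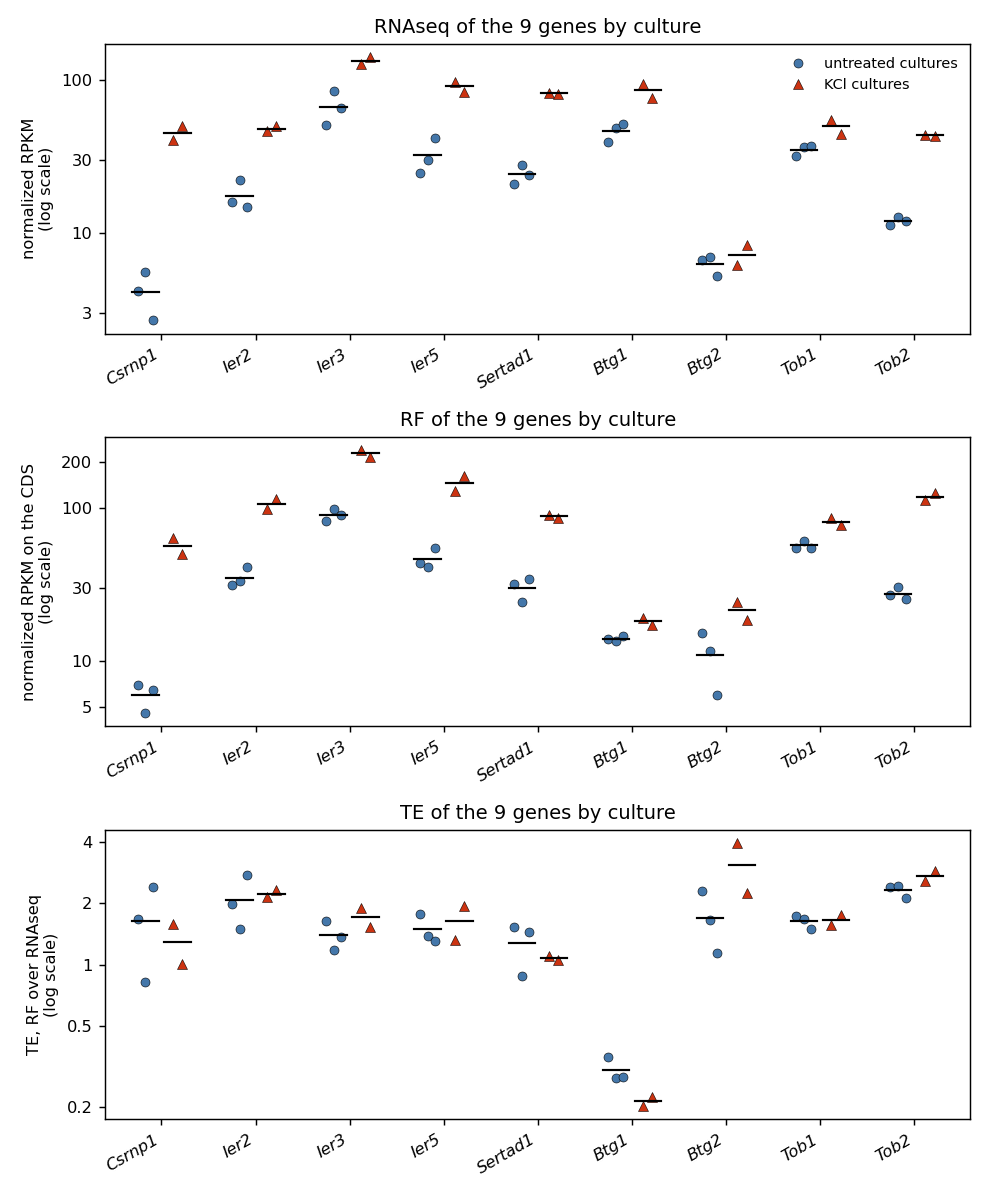
Normalized RPKM of RNAseq (top), normalized RPKM of RF on the CDS (middle) and TE, their ratio (bottom), of the 9 genes on log axes, with a circle for each of the 3 untreated cultures, a triangle for each of the 2 KCl cultures and a bar at the group mean. RNAseq and RF of Csrnp1 and Tob2 are far apart between groups, the TE values of the groups overlap for most genes, and Btg1 lies below the others in TE at 0.202 to 0.35.

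Csrnp1 had the largest difference of the members in both assays. Its RNAseq normalized RPKM was 4.15, 5.5 and 2.67 in untreated cultures 1 to 3 and 40.2 and 49.6 in KCl cultures 4 and 5. RF followed, from 6.93, 4.53 and 6.42 to 63.5 and 49.9. Both KCl cultures were far above every untreated culture, and the fitted fold difference was 10.8 in RNAseq (log2 3.44 ± 0.22, SE) and 9.47 in RF (log2 3.24 ± 0.20). The untreated values rest on 19 to 41 RNAseq reads and 12 to 70 RF reads. TE was 1.67, 0.823 and 2.4 untreated against 1.58 and 1.01 with KCl, and the KCl values lay inside the untreated range.

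Tob2, which encodes a partner of the deadenylase complex, came next. Its RNAseq normalized RPKM was 11.2, 12.6 and 11.9 without KCl and 43.9 and 43.3 with it. Replicates were close to each other here, with an SD of 0.720 (n = 3) and 0.424 (n = 2). The fold difference was 3.66 in RNAseq (log2 1.87 ± 0.16) and 4.26 in RF (log2 2.09 ± 0.15), where normalized RPKM was 26.8, 30.6 and 25.3 against 113 and 125. TE was 2.4, 2.43 and 2.13 untreated and 2.59 and 2.89 with KCl, a log2 difference of 0.22 ± 0.25. Part of its 5′UTR, 28.7% of 30-base windows, is found on the opposite strand of an antisense gene, Gm49476. The RNAseq kit is not stated to keep the strand, so reads there cannot be assigned. They were 0 to 2 per library. The same holds for 20.8% of the windows of the Csrnp1 5′UTR, which carried at most 1 RNAseq read per library.

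Its paralog Tob1 had the smallest difference of the measured members in RNAseq. Normalized RPKM was 31.6, 36.5 and 37.0 untreated and 54.8 and 44.5 with KCl. RF was 54.8, 61.0 and 55.2 against 86.0 and 77.7. The log2 difference was 0.50 in both assays, with an SE of 0.16 in RNAseq and 0.14 in RF, which is a fold of 1.42. The groups did not overlap, but without KCl culture 4 the log2 values were 0.34 in RNAseq and 0.44 in RF, and Tob1 was no longer called in either (adjusted p = 0.273 and 0.0814, edgeR). TE was 1.73, 1.67 and 1.49 against 1.57 and 1.75, a log2 difference of 0.01 ± 0.24.

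Sertad1, Ier2 and Ier5 formed a middle group with folds from 2.73 to 3.38 over the assays. For Sertad1, RNAseq normalized RPKM was 20.8, 27.8 and 23.9 untreated and 82.3 and 81.4 with KCl, a log2 difference of 1.76 ± 0.19. RF of Sertad1 was 31.8, 24.4 and 34.4 against 90.4 and 86.5 (log2 1.6 ± 0.19). The Sertad1 groups were well apart in both assays, and TE of the KCl cultures, 1.1 and 1.06, lay between the untreated values of 0.876 and 1.53.

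Ier2 encodes a nuclear regulator of transcription. Its RNAseq normalized RPKM was 15.8, 22 and 14.8 untreated against 46.2 and 49.8 with KCl (log2 1.45 ± 0.20), and its RF was 31.3, 33.1 and 41.0 against 99.2 and 115 (log2 1.70 ± 0.17). Ier5, which acts with the heat shock factor HSF1, had RNAseq values of 24.5, 29.9 and 41.8 against 97.6 and 83.8 (log2 1.5 ± 0.16). RF of Ier5 was 43.5, 41.3 and 54.7 against 129 and 163 (log2 1.73 ± 0.15). For both genes, both KCl cultures exceeded every untreated culture in each assay. Their TE differed by a log2 of 0.22 ± 0.29 for Ier2 and 0.12 ± 0.22 for Ier5.

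Ier3 was the most abundant member with KCl as well. Its RNAseq normalized RPKM was 50.6, 84.5 and 65.8 untreated and 127 and 141 with KCl, a fold of 2.00 (log2 1.00 ± 0.17). RF was 83.0, 99.5 and 89.7 against 241 and 216, a fold of 2.50 (log2 1.32 ± 0.15). The untreated RNAseq values spread more than those of RF. TE was 1.64, 1.18 and 1.36 against 1.89 and 1.54, so that KCl culture 5 lay below untreated culture 1, and the log2 difference of 0.30 ± 0.24 was the largest positive one among the measured members.

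Btg2 stayed low. Its RNAseq normalized RPKM was 6.67, 6.97 and 5.22 untreated and 6.14 and 8.28 with KCl, and the groups overlapped. RF was 15.3, 11.6 and 5.93 against 24.4 and 18.6, on 3 to 42 reads per library. In RF both KCl cultures lay above the untreated ones, as they did for 30.2% of measured transcripts. In the fit on all 20440 transcripts with at least 1 read, its log2 difference was 0.27 ± 0.29 in RNAseq and 0.79 ± 0.39 in RF, and neither passed the threshold.

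**Figure D2:**
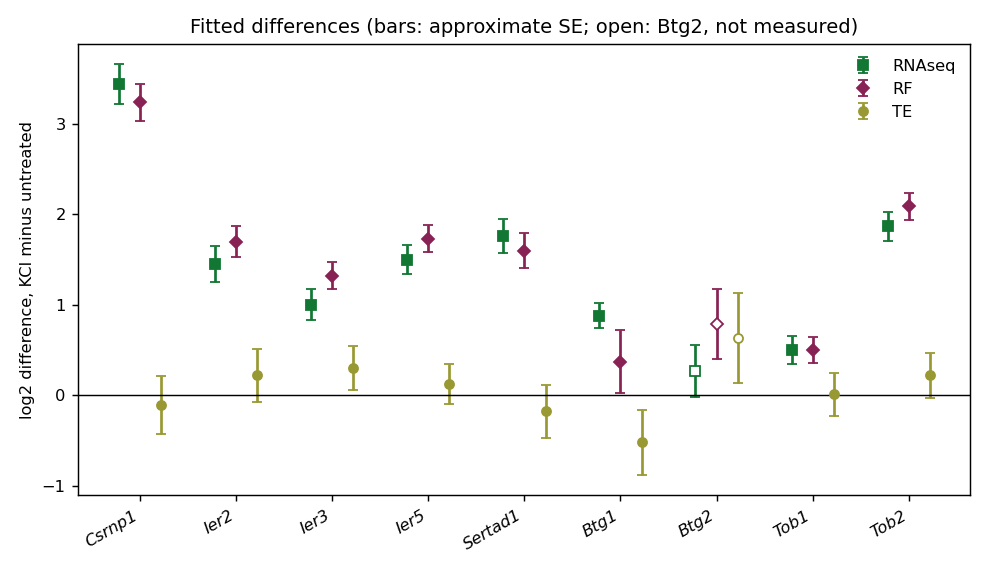
Fitted log2 differences, KCl minus untreated, of the 9 genes in RNAseq (squares), RF (diamonds) and TE (circles), with bars for the approximate SE, and open symbols for Btg2, which was not measured and comes from the fit with no filter beyond 1 read. RNAseq and RF lie close together for most genes, from 0.50 for Tob1 to 3.44 and 3.24 for Csrnp1, and Btg1 is the measured gene with RF farthest below RNAseq, at 0.37 against 0.88.

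Btg1 had the largest gap between RNAseq and RF on the CDS among the measured members. RNAseq normalized RPKM was 39.5, 48.5 and 51.8 untreated and 94.5 and 76.6 with KCl, a log2 difference of 0.88 ± 0.14. RF on the CDS was 13.8, 13.5 and 14.6 against 19.1 and 17.2, a log2 difference of 0.37 ± 0.35 on 8 to 41 reads per library. The KCl cultures lay above the untreated ones in both, but RF was not called. TE was below the untreated range in both KCl cultures, at 0.202 and 0.224, as it was for 18.3% of transcripts. Its log2 difference was -0.52 ± 0.36 and was not called.

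Most counted Btg1 footprints were not on the CDS, whose count is uncertain because its sequence is shared, as described below. In untreated cultures 1 to 3, 294, 282 and 73 RF reads lay on the 5′UTR of Btg1 and 41, 34 and 8 on its CDS. In KCl cultures 4 and 5 the numbers were 125 and 250 on the 5′UTR and 11 and 19 on the CDS. The 5′UTR held 86.7% to 92.3% of the RF reads of this gene in every culture, whereas 6.04% to 8.56% of all reads of an RF library lay on 5′UTRs. Per base, the untreated 5′UTR was covered 12.6 times as densely as the CDS, at the 99.8th percentile of the 6417 transcripts with both UTRs of at least 50 nt, whose median was 0.343. The annotated 5′UTR is 319 nt long with a GC content of 67.4%, and holds 2 ATG triplets upstream of the CDS. The upstream reading frame that begins at position 21 has 23 codons before its stop, and that at position 87 has 1. Both end inside the 5′UTR and are out of frame with the CDS.

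With KCl the 5′UTR footprints of Btg1 were also higher, at 50.9, 57.3 and 68.4 normalized CPM untreated and 111 and 116 with KCl, a ratio of 1.93. This is close to the RNAseq fold of 1.83. When reads on the 5′UTR and the CDS were counted together, a choice made after the data were seen, Btg1 RF differed by a log2 of 0.93 ± 0.14 and TE by 0.03 ± 0.20. The positions of reads within a region are not in the counts, and the part of reads that start upstream and cover the start codon was not tested.

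**Figure D3:**
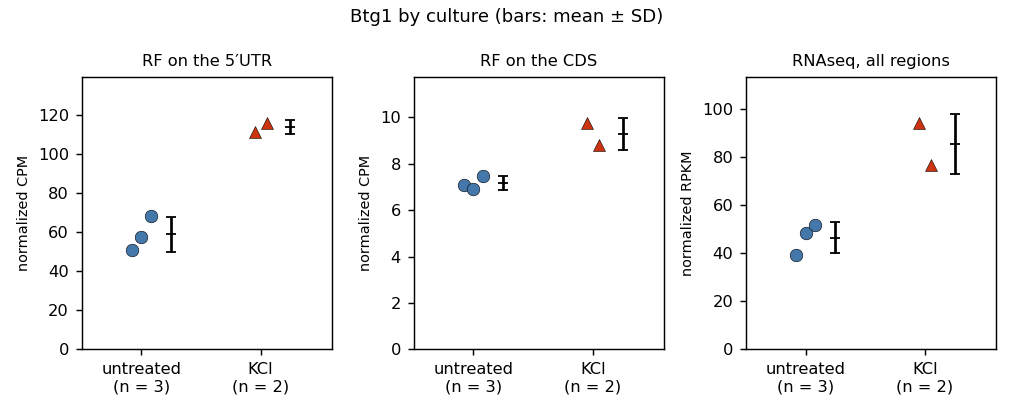
Btg1 by culture, as normalized RF CPM on the 5′UTR (left), the same on the CDS (middle) and normalized RPKM of RNAseq (right), with circles for untreated and triangles for KCl cultures and bars for the mean ± SD. The 5′UTR values are 50.9 to 68.4 untreated and 111 to 116 with KCl, and the CDS values are 6.91 to 7.49 and 8.81 to 9.78.

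The CDS of Btg1 shares sequence with other genes. Of its 487 windows of 30 bases, 39.4% occur unchanged in Gm14519, Btg1-ps1 or Btg1-ps2, and 322 (66.1%) occur there with at most 2 mismatches. The 5′UTR shares 0% of its windows, and the 3′UTR 0.58%. The study removed degenerate sequences from the transcriptome before alignment and kept reads that map to several transcripts, so that footprints on the Btg1 CDS could be lost or shared. The low CDS value of Btg1 is therefore uncertain. So are its TE, its 5′UTR share of RF reads and its 5′UTR to CDS ratio, which rest on it. The part of the shared sequence in them was not tested. Among the other members, shared windows on the same strand made up at most 0.755% of any region, the CDS of Tob1.

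The other members had fewer 5′UTR footprints. Over the untreated cultures they were 284 for Tob1, against 734 on the CDS, 132 against 474 for Ier5, 28 against 257 for Ier2, 33 against 344 for Tob2 and 23 against 241 for Sertad1. Btg2, which was not measured, had 15 against 72, Csrnp1 had 0 and Ier3 1. Per base, the ratio of 5′UTR to CDS coverage was 1.48 for Btg2 (94th percentile), 1.25 for Ier5 (91.4th percentile), 0.975 for Tob1 (86.2nd) and 0.152 for Tob2 (30.8th). Upstream ATG triplets were present in 55.4% of the 6460 measured 5′UTRs of at least 50 nt. Among the members they were found in Tob1 (1), Tob2 (3) and Sertad1 (1) besides Btg1, and in 0 copies in Ier5, Ier2, Ier3, Csrnp1 and Btg2. Ier5 and Btg2 thus had dense 5′UTR coverage with no upstream ATG in the annotated sequence, for Btg2 on 15 footprints over 67 nt. For these genes too, the part of reads that start upstream and cover the start codon was not tested. In Ier5 the 5′UTR share of RF reads was 22.8%, 19.7% and 21.4% in untreated and 14.6% and 11.2% in KCl cultures, and in Btg1 86.7%, 88.4% and 90.1% against 91.2% and 92.3%. In Sertad1 it was 7.14%, 6.59% and 21.2% against 13.3% and 24.9%. The KCl cultures lay below all untreated cultures for Ier5 and, narrowly, for Tob1 (27.1%, 26.8% and 36.0% against 26.6% in both), and above them for Btg1 and, on 1 and 2 reads, for Csrnp1. Over 7261 measured transcripts with RF reads in every library, 8.22% lay below and 13.8% above in this way.

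RNAseq reads also fell unevenly on the transcripts. Ier5 had 2, 2 and 0 RNAseq reads on its CDS of 927 nt in untreated cultures 1 to 3, while 204, 248 and 335 reads lay on its 3′UTR. Btg1 had 2, 3 and 0 reads on its CDS against 501, 615 and 631 on its 3′UTR. Per base, coverage of the CDS relative to the 3′UTR was 0.0117 for Ier5 and 0.0231 for Btg1, at the 0.811th and 1.23rd percentiles, beside a median of 0.656. Ier5 nevertheless had 474 footprints on this CDS over the same cultures. Ier2 (0.0872, 3.63rd percentile) and Csrnp1 (0.131, 6.44th percentile) were also low. Tob1 was the opposite, with 80.6%, 81.8% and 86.5% of its untreated RNAseq reads on the CDS, a ratio of 4.55 at the 92.7th percentile.

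In the other members 65.9% to 97.6% of the RNAseq reads lay on the 3′UTR, except in untreated culture 1 for Sertad1, where 33 of 66 did. RNAseq values of all members except Tob1 are therefore largely 3′UTR values, to the greatest extent in Ier5 and Btg1, and their TE compares CDS footprints largely with 3′UTR reads. With RNAseq counted on the CDS alone, 4 of the 8 members were called higher. Ier2 (adjusted p = 0.0589) and Tob1 (adjusted p = 0.0552, both edgeR) kept their direction, while Ier5 (log2 -0.36 ± 1.43) and Btg1 (log2 -1.51 ± 1.58) changed sign on 0 to 3 reads per library.

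**Figure D4:**
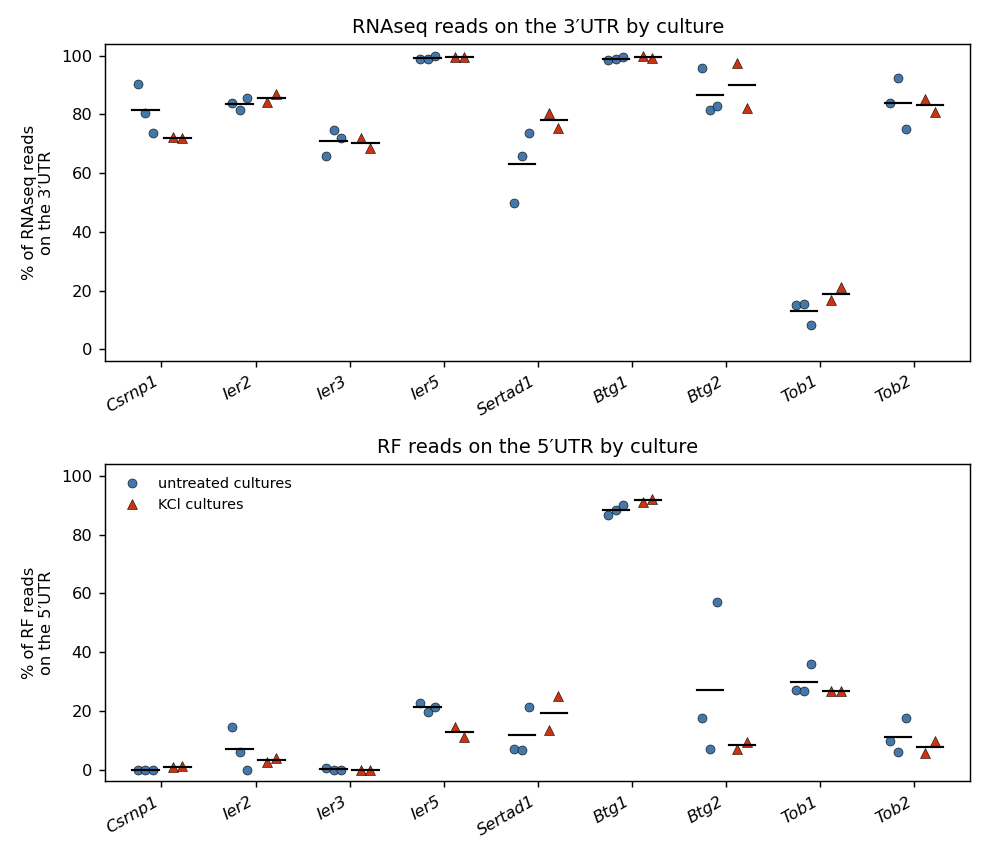
Percentage of the RNAseq reads of each gene that lie on the 3′UTR (top) and percentage of its RF reads that lie on the 5′UTR (bottom), with circles for untreated and triangles for KCl cultures and a bar at the group mean. Nearly all RNAseq reads of Ier5 and Btg1 are on the 3′UTR and few of Tob1 are. Of the counted Btg1 footprints, 86.7% to 92.3% are on the 5′UTR.

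Relatives of the members and their known partners were looked up in lists that were also chosen with results of these data known. Of 9 relatives, 6 were counted and 2 measured, Sertad2 and Cdca4, both of the SERTAD family. Both rose, Sertad2 by a log2 of 1.30 ± 0.18 in RNAseq and 1.59 ± 0.25 in RF, and Cdca4 by 1.24 ± 0.24 and 1.16 ± 0.22. Of all transcripts, 17.9% were called higher in RNAseq and 20.8% in RF. Cdca4 lost its RNAseq call with RNAseq counted on the CDS alone (log2 0.97 ± 0.55). Neither of the 2 genes was called in TE. Csrnp2, Csrnp3, Sertad4 and Ier5l were counted but below the filter.

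The list of deadenylation partners held 14 genes of the CCR4-NOT complex and poly(A)-binding proteins, of which 10 were measured. In RNAseq 4 rose and 1 fell, where 17.9% of all transcripts were called higher and 15.1% lower, and the list median log2 was 0.34. Cnot1, the scaffold of the complex, rose by 0.69 ± 0.13 in RNAseq and 0.61 ± 0.09 in RF, and Pabpc1, the main poly(A)-binding protein of the cytoplasm, by 0.53 ± 0.15 in RNAseq, with -0.02 ± 0.14 in RF. Cnot10 and Cnot6, the latter encoding a deadenylase, also rose in RNAseq, by 0.56 ± 0.19 and 0.46 ± 0.16, and each lost its call in 5 of 12 alternatives. Cnot9, a conserved subunit of the complex, fell by 0.86 in RNAseq (SE 0.18) and by 1.32 in RF (SE 0.21). In RF 2 genes rose, Cnot1 and Cnot4 (0.50 ± 0.17, lost in 5 of 12 alternatives), and 2 fell, Cnot9 and Cnot2 (-0.59 ± 0.16), with a list median of -0.08 and 20.8% and 20.1% of all transcripts called higher and lower. In TE, Cnot6 fell by 0.84 (SE 0.27), a call lost in 8 of 13 alternatives. Cnot1 and Cnot9 kept their calls in RNAseq and RF in all 12.

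Of 10 cell cycle genes tied to BTG, TOB and SERTAD1 proteins, 6 were measured. In RNAseq 3 fell and 1 rose, where 15.1% of all transcripts were called lower and 17.9% higher. Ccnd1 and Cdk4, which encode cyclin D1 and its kinase, fell by 0.59 (SE 0.16) and 0.49 (SE 0.15), and the retinoblastoma gene Rb1 fell by 0.50 (SE 0.18). Their RF log2 differences were -0.52 ± 0.14, -0.73 ± 0.18 and -0.59 ± 0.14, and all 3 were called, where 20.1% of all transcripts were called lower. In RNAseq the call of Cdk4 was lost in 3 of 12 alternatives, with a log2 of -0.10 on CDS reads alone, and that of Ccnd1 in 2 of 12, and in RF that of Ccnd1 and that of Rb1 in 1 of 12 each. Tfdp2, a DP partner of E2F factors, was the gene that rose (0.57 ± 0.20), and its call was lost in 6 of 12 alternatives, that of Rb1 in RNAseq in 7 of 12. In TE 0 of the 6 were called by edgeR, and 0 had an unadjusted p under 0.05. The list median was -0.37 in RNAseq and -0.33 in RF. Ccnd2, the most abundant of the list with a mean of 427 CPM in untreated cultures, differed by -0.24 ± 0.13 in RNAseq and was not called.

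For 7 of the 8 measured members, the non-member gene with the most similar profile over the 10 libraries is given, out of 4361 genes, as the smallest Euclidean distance between log2 normalized CPM relative to the untreated mean of the same assay. The distances share the libraries and the KCl contrast with the choice of the members. Ier3 lay nearest to Junb (distance 0.265), Tob2 to Cebpb (0.293), which encodes a leucine zipper transcription factor, and Csrnp1 to Maff (0.889), a small MAF factor. Maff differed by a log2 of 3.44 in RNAseq and 3.61 in RF, and Cebpb by 1.88 and 1.98. Ier2 lay nearest to Gem (0.447), a small GTPase. Sertad1 lay nearest to Cyp51 (0.556), a demethylase of sterol synthesis, which differed by 1.82 in RNAseq and 1.5 in RF. Btg1 lay nearest to the phosphatase gene Mtmr3 (0.195), with log2 differences of 0.85 in RNAseq and 0.29 in RF, and Tob1 to the elongase gene Elovl4 (0.247; 0.60 and 0.44). That a nearest gene has log2 differences like those of the member follows from how it was picked.

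In the genome (GRCm38), the 9 transcripts have short structures with 1 to 5 exons. Ier2 (ENSMUST00000060427, chr8:84661331-84662852, minus strand) and Ier5 (ENSMUST00000055322, chr1:155096361-155099636, minus strand) each consist of 1 exon. Ier3 (ENSMUST00000003635, chr17:35821684-35822923, plus strand), Btg1 (ENSMUST00000038377, chr10:96617006-96622809, plus strand), Btg2 (ENSMUST00000020692, chr1:134075170-134079120, minus strand), Tob1 (ENSMUST00000041589, chr11:94211454-94215495, plus strand), Tob2 (ENSMUST00000050467, chr15:81848272-81858485, minus strand) and Sertad1 (ENSMUST00000008528, chr7:27486910-27490316, plus strand) have 2 exons each. Csrnp1 (ENSMUST00000035101, chr9:119971163-119984443, minus strand) has 5. The transcripts are 1131 nt (Ier3) to 5001 nt (Btg1) long, with a CDS of 477 nt (Btg2) to 1752 nt (Csrnp1) and a 3′UTR of 350 nt (Sertad1) to 4166 nt (Btg1).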

How the data were processed

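RNAseq and RF were measured in 3 untreated and 2 KCl cultures. A further KCl replicate was removed by the study for its library size. Trimming used Trimmomatic 0.32 and rRNA was filtered out with STAR 2.3.1z8. Alignment used bowtie2 2.2.2 on the mm10 Ensembl transcriptome, from which degenerate sequences had been taken out, and multiply mapped reads were retained. The authors deposited raw counts per transcript region, made with BEDTools 2.20.1. Regions carry letters. The rank correlation of read shares with annotated lengths over 13017 transcripts was highest for the 5′UTR with the letter a (0.488), the CDS with b (0.639) and the 3′UTR with d (0.661), and c remained unnamed. For TE, the study excluded the surroundings of start and stop codons. Counts per region do not allow this step, and whether it was already made in them is not known. Footprints piled up at these codons may therefore remain in the values.

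Of 22534 transcripts, 22172 (98.4%) were matched to the GRCm38 annotation. RNAseq used all regions and RF the CDS. Depth is given with the results, and the median measured transcript had 189 to 219 RNAseq reads and 70 to 379 RF reads per library. Normalized RPKM and CPM use TMM library sizes over measured transcripts. Differences were fitted with edgeR 4.0.16 in R 4.3.3 (quasi-likelihood, robust, TMM within each assay) and adjusted by the Benjamini-Hochberg method over 7262 transcripts, at a threshold of 0.05. The SE is the absolute log2 difference over the square root of F, an approximation. TE was tested as an assay-by-treatment interaction, with a block for each culture, because the methods state that 1 lysate gave both libraries of a culture. Deviations of same-numbered RNAseq and RF libraries from their group means correlated at -0.0731, -0.049 and 0.0629 in untreated cultures and 0.0234 in KCl cultures.

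The fits were also run on simulated counts in which RF of the KCl libraries alone was changed, in well-covered transcripts. That run does not cover changes in RNAseq or members with few reads. The member genes, the lists (family relatives, deadenylation partners, cell cycle partners, activity genes, cell type markers) and the motifs were chosen with earlier results of these data known. Besides all members, the text names the gene nearest in profile to each, except that of Ier5, which is not reported here, and up to 4 called genes per list with the largest differences, plus Cnot6, Cnot4 and Cnot2 where the called genes of a list are counted, and Ccnd2 and Gem with values for comparison. Alternatives were DESeq2 1.42.0, library totals, 2 other filters, 1 transcript per gene, CDS reads for RNAseq, 1 fit over all 10 libraries, no block, leaving out each culture, and, chosen after seeing the data, RF reads on the 5′UTR and the CDS. Protein sequences were not used here.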

Additional observations from a re-analysis of the deposited data

How the results depend on the processing

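The 8 members called higher in RNAseq stayed at 8 in every alternative except CDS reads for RNAseq (4 members) and the fit without KCl culture 4 (7), and the 7 called in RF ranged from 6, without KCl culture 4, to 8 with 5′UTR and CDS reads counted together. TE of 0 members was called in any alternative. Transcripts called over the whole table numbered 2395 in RNAseq, 2971 in RF and 421 in TE. They numbered 4090 and 5436 in RNAseq and RF with no filter beyond 1 read, 3918 and 5286 with filterByExpr, 1442, 1744 and 262 (TE) with 1 transcript per gene, 1529 and 266 (TE) with CDS reads for RNAseq, and 176 in TE with DESeq2. Without the replicate block, 420 were called in TE, and the block changed no call of a member. Leaving out each culture gave 1638 to 2637 transcripts in RNAseq, 1698 to 3233 in RF and 70 to 547 in TE. With library totals the calls were 1052 higher and 1533 lower in RNAseq, against 1300 and 1095 with TMM, and 1073 and 2107 in RF, against 1511 and 1460. The median of all transcripts then was -0.1 in RNAseq and -0.14 in RF, and the member medians were 1.38 and 1.51. Several log2 differences in TE changed sign, and none was called. With CDS reads for RNAseq they were 2.02 for Btg1 (SE 1.65), -0.07 for Tob2 (SE 0.36) and 0.33 for Sertad1 (SE 0.39), while Ier5 moved from 0.12 to 2.06 (SE 1.25) and Csrnp1 from -0.11 to -0.82 (SE 0.49) without a change of sign, and with 5′UTR and CDS reads for RF -0.05 for Ier5, 0.03 for Btg1 and -0.06 for Tob1. Tob1 was also at -0.02 with library totals and -0.01 with 1 transcript per gene. Leaving out cultures moved TE between -0.58 and 0.23 for Csrnp1, 0.0 and 0.39 for Ier2, -0.18 and 0.39 for Ier5, -0.07 and 0.1 for Tob1, and -0.47 and 0.04 for Sertad1. In RNAseq, CDS reads gave -0.36 for Ier5 and -1.51 for Btg1. The causes were not tested. RF depth limits Btg1, Btg2 and Csrnp1 in untreated culture 3, where they had 8, 3 and 12 reads.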
